A study of Mus musculus with 2 samples.

Results

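The numbered Zfp genes are the mouse genes named Zfp and a number, most of which encode zinc finger proteins of the C2H2 type. They were followed here in NIH3T3 cells, an established mouse embryonic fibroblast line, by the distribution of their mRNAs between polysomes and lighter fractions. Members were the coding RefSeq accessions whose name on the array was Zfp followed only by digits, except Zfp36, which encodes an RNA-binding protein with another kind of finger, and which gave a signal above the detection limit on both arrays. Of 275 such accessions, 181 passed this limit, and they are 181 of the 10033 coding mRNAs that passed it. The 181 mRNAs carry 180 gene names, since Zfp655 is present as 2 accessions.

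Cells were either untreated (control) or exposed for 3 h to thapsigargin at 10 µM, which blocks the calcium pump of the endoplasmic reticulum and elicits endoplasmic reticulum stress. Cytoplasmic RNA was sedimented through a sucrose gradient and collected as polysomes (P) or as free mRNA together with monosomes (FM). Each condition was represented by 1 two-colour array, with P labelled with Cy3 and FM with Cy5, and each RNA was itself pooled from 3 preparations. With 1 array per condition no difference has a replicate check, so no p-value is given, and precision is limited by having 1 array each.

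A C2H2 finger is a short fold in which a pair of cysteines and a pair of histidines hold a zinc ion, and a string of such fingers reads a stretch of DNA. Many mouse Zfp proteins also carry a KRAB domain, which recruits the corepressor Trim28 and with it enzymes that lay down silent chromatin. The genes lie in clusters that grew by tandem duplication, so that neighbours have similar sequences, and the conserved linker between fingers (TGEKPY or a close variant) recurs many times within a single gene.

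The sequences below are array probes that lie on such finger repeats, shown because they carry a hallmark of the family and because their values enter the results. Capitals mark the codons of the linker core or of the cysteine repeat, as found in a translated frame of the probe. The probes of Zfp51, Zfp52 and Zfp53 come from 1 cluster on chromosome 17 (mm9, plus strand), at chr17:21602214-21602273 and chr17:21602314-21602373 for Zfp51, chr17:21698735-21698794 for Zfp52 and chr17:21645999-21646058 for Zfp53. The probe of Zfp595 is at chr13:67418178-67418237 and that of Zfp777 at chr6:47975000-47975059, both on the minus strand.
Zfp51, upstream probe: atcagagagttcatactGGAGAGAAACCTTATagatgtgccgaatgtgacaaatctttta
Zfp51, downstream probe: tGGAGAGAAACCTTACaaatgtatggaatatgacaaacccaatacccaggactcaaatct
Zfp52: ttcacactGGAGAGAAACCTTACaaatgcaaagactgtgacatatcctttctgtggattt
Zfp53: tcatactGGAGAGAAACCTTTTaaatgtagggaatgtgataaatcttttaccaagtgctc
Zfp595: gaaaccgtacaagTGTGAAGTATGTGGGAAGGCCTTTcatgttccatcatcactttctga
Zfp777: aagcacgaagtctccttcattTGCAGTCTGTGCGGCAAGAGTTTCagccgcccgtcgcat

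The probe of Zfp53 rose on the log2 P/FM scale by 2.07, that of Zfp52 by 1.85 and that of Zfp595 by 2.50, whereas that of Zfp777 fell by 1.54. The probes of Zfp51 rose by 1.42 and 0.70. A finger pattern of this kind was found in 24 of the 288 member probes (8.33%) and in 60 of the 26723 probes of all coding mRNAs (0.225%). The 24 probes had a median change of 0.74 and the 264 other member probes one of 0.72. In 17 mRNAs that had probes of both kinds, the change had the same sign for both in 15, with a median absolute difference of 0.41. The best match of a member probe in a probe of another gene covered 70% or more of its 60 bases for 10 probes, 7 of them on finger patterns, and reached 80% for 1 probe, of Zfp345. Whether RNA of related genes adds to the signal of these probes was not tested.

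The measure used throughout is log2 P/FM, the Cy3 signal over the Cy5 signal on a log2 scale, where 0 means equal signals in both fractions. The change is the value with thapsigargin minus that in control cells. Brightness is given as A, the average of the log2 signals of both channels, and the detection limit was an A of 4.5 on each array. Both arrays were without normalization, so that a shift common to all mRNAs remains in every value. Per the study, RNA was labelled in the proportions recovered, with more P than FM RNA in control cells and more FM than P RNA after stress. The sign of a value or change therefore depends on this scale. The median over the 10033 mRNAs went from 0.34 to -0.29, the median of their changes was -0.71, and 10 spike-in probes changed by a median of -2.44. All 8 fibroblast markers looked at were above the limit (A from 8.33 to 17.4), and of 8 markers of leukocytes, epithelium and endothelium only Cd3e was, with A of 6.06 and 5.93.

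On this unnormalized scale the whole set of mRNAs shifted from P toward FM with thapsigargin. The Zfp mRNAs went the opposite way, from FM in control cells toward P with thapsigargin. Their median log2 P/FM was -0.41 in control cells, where 117 of 181 (64.6%) were at or below 0 against 36.5% of all coding mRNAs, and 0.19 with thapsigargin. The median change was 0.54, which lies 1.25 above that of all mRNAs. The change was upward in 121 Zfp mRNAs and downward in 60, whereas 2940 of all mRNAs went up and 7093 down. A rise of 1 or more was measured for 70 Zfp mRNAs (38.7%, background 9.9%) and a fall of 1 or more for 25 (13.8%, background 40.8%). A difference of 1 on this scale can be set against the SD between probes of 1 mRNA, whose median was 0.41 over the 59 Zfp mRNAs with several detected probes. That SD shows how far probes on the same arrays disagree. It does not measure the error of a difference between conditions, so a change above it is not thereby shown to exceed error. The plot of both arrays shows these values. Moving each array to its spike-in median adds 2.55 to every change, which leaves no sensitive Zfp mRNA. The median change of all coding mRNAs is then 1.84, upward like that of the Zfp mRNAs. The difference of 1.25 from all mRNAs stays as it is.

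**Figure D1:**
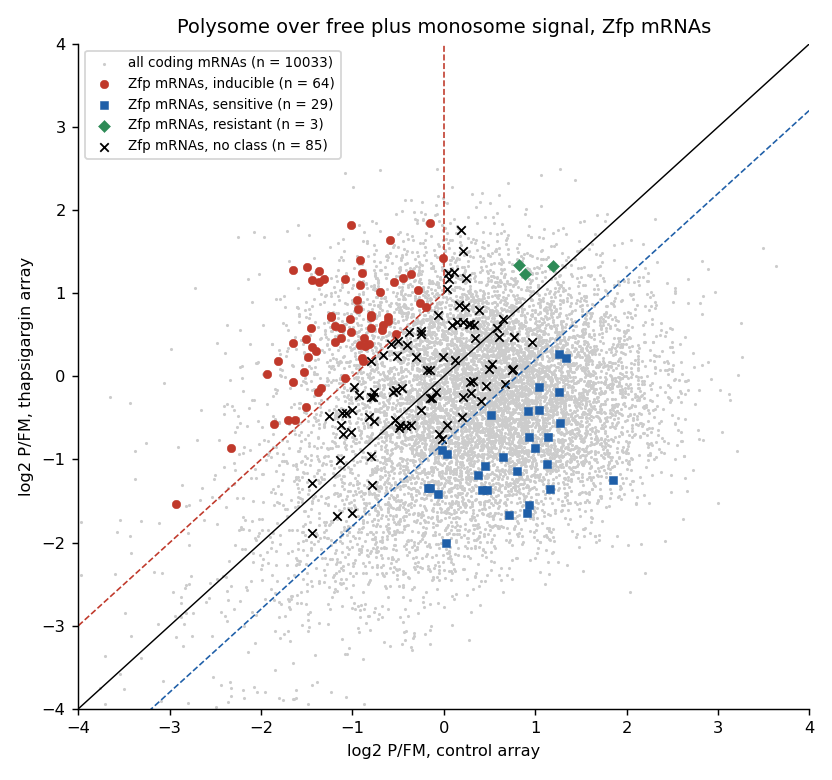
log2 P/FM on the control array (x axis) and on the thapsigargin array (y axis), 1 point per mRNA, with all coding mRNAs in grey and the Zfp mRNAs by class. The solid line marks equal values, the red dashed lines bound the inducible mRNAs and the blue dashed line the sensitive ones. The 64 inducible Zfp mRNAs lie at the upper left, the axes stop at -4 and 4, and a few of the grey points fall outside.

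Classes were set by limits on these values. Inducible mRNAs started at or below 0 on the control array and gained 1 or more, sensitive mRNAs changed by -0.8 or lower, and resistant mRNAs stayed at 0.8 or above on both arrays. Of the Zfp mRNAs, 64 (35.4%) were inducible, against 8.86% of all coding mRNAs. Sensitive were 29 (16.0%), against 47%, and resistant were 3 (1.66%), against 3%. The resistant ones were Zfp622, Zfp319 (0.82 and 1.34) and Zfp94 (0.89 and 1.23), and on the control array the FM signal of Zfp94 was not well above background. The other 85 fell in no class. Among the 133 members whose every probe was well above background in all channels, 43 (32.3%) were inducible, with a background of 7.52% for mRNAs of the same quality.

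Signals are background-subtracted intensities, averaged on the log2 scale where an mRNA has several probes. Both channels contributed to the classes. The inducible Zfp mRNAs went from a median log2 P/FM of -1.05 to 0.59, and 54 of the 64 ended above 0. Their P signal was higher with thapsigargin in all 64, by a median of 1.53 on the log2 scale. Their FM signal was lower in 37 and higher in 27, with a median change of -0.12. The 889 inducible mRNAs among all coding mRNAs had nearly the same medians, 1.44 in P and -0.13 in FM. The 29 sensitive ones went from 0.91 to -1.06. Their FM signal was higher in all 29, by a median of 1.20, and their P signal was lower in 22, with a median change of -0.58. The 4719 sensitive mRNAs among all coding mRNAs had medians of 1.04 in FM and -0.62 in P. These channel shifts thus go with the class limits and are not particular to the Zfp mRNAs. For all members the median change was 0.91 in P and 0.39 in FM, where all coding mRNAs had 0.02 and 0.72 (log2 scale).

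The members with known work in ribosome biogenesis and ribosome quality control were not alike. Zfp593, a factor that accompanies the precursor of the large ribosomal subunit out of the nucleus, had the largest fall of all members. Its P signal went from 5833 to 1635 and its FM signal from 1619 to 3879, so that log2 P/FM went from 1.85, the highest control value among members, to -1.25, a change of -3.10. Zfp622, which acts in the last cytoplasmic steps of large subunit maturation, had P signals of 1265 and 2452 and FM signals of 552 and 974. Its log2 P/FM was 1.20 and 1.33, which makes it one of the 3 resistant members, with A higher by 0.89 with thapsigargin. Zfp598, a ubiquitin ligase that marks collided ribosomes, went from 0.47 to -1.37. It was chosen after its values were seen.

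Other members picked by role bind RNA or act in the nucleolus or on the spindle. Their changes are read against those of all coding mRNAs, of which 70.7% went down, with a median of -0.71. Zfp330, a nucleolar protein, went from 1.04 to -0.40, a change of -1.45 ± 0.02 (SD, 2 probes). Zfp207, which binds spindle microtubules, went from 1.34 to 0.22, a change of -1.12 ± 0.15 (SD, 2 probes). Zfp346, which binds double-stranded RNA, went from 0.52 to -0.47. Zfp326, of a complex that couples splicing with elongation, had a change of -0.63 ± 0.23 over 3 probes, which is close to that median. Zfp106, an RNA-binding protein of neurons and muscle, gave no clear direction, since its 4 probes ranged from -1.14 to 0.87. Zfp706 had 3 probes from -0.99 to 0.22, and the lowest, with A of 2.27 and 2.05, was below the detection limit. Its other probes changed by -0.60 and 0.22.

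The next 6 members picked by role are nuclear factors that rose by 1 or more, as did Zfp57 and Zfp451, which are given further below. Zfp148, a factor for GC-rich promoters, went from -1.12 to 0.59, and its 4 probes rose by 0.90 to 2.48. Zfp281, which acts at similar GC-rich sites and is known from stem cells, had P signals of 288 and 478 and FM signals of 421 and 218. Its log2 P/FM went from -0.55 to 1.14, a change of 1.68. Zfp263 rose by 1.71 ± 0.62 (SD, 3 probes) and Zfp318, which B cells need to make IgD, by 1.21 ± 0.66 (SD, 3 probes). Zfp521, a cofactor in early haematopoietic and mesenchymal cells, went from -0.26 to 0.88. Zfp462, a large protein that keeps heterochromatin in stem cells, went from -0.91 to 1.40, a change of 2.31 ± 0.71 (SD, 2 probes). Each of these 6 mRNAs was at or below 0 in control cells and above 0 with thapsigargin.

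Other promoter-bound factors did not rise, where the median change of all coding mRNAs was -0.71. Zfp410, Zfp217, Zfp503 and Zfp219 lay above that median, and Zfp384 and Zfp335 were close to it. Zfp410, an activator of the remodeller gene Chd4, was at 0.58 on both arrays. Zfp384 changed by -0.69 ± 0.42 (SD, 2 probes), and Zfp217, amplified in breast tumours, by -0.22. Zfp503, a repressor of the developing brain and mammary gland, changed by -0.36, and Zfp219 by -0.10 ± 0.09 (SD, 2 probes). Zfp335, found with a histone methyltransferase complex, went from -0.02 to -0.75. These differences are below the limit for the sensitive class, and those of Zfp217, Zfp503 and Zfp219 are smaller than the median SD between probes. Zfp365 changed by 0.34, from -1.01 to -0.67, which is also within that spread.

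The next 4 members were listed for work on imprints, retroviruses or protein modification. Zfp57, which keeps imprinted regions methylated, went from -0.53 to 0.51, a rise of 1.03. Zfp809, which starts the silencing of integrated retroviruses, went from -0.51 to 0.24, a rise of 0.75 ± 0.75 (SD, 2 probes) that is no larger than its spread. Zfp451, a SUMO ligase, rose by 1.33, from -0.61 to 0.72, and Zfp91, a ubiquitin ligase, by 0.68 ± 0.48 (SD, 4 probes). Of 34 members listed for a known role, 30 are on the array and 25 passed the limit. Those below it were Zfp143, Zfp42, Zfp467, Zfp423 and Zfp516. Another mRNA of Zfp318 on the array was also below it in control cells, with A of 3.93.

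For most of the largest rises no function was assigned here beyond the family name. Among the 128 members with every probe well above background and of the same sign, the 6 largest rises were those of Zfp120 (2.93), Zfp292 (2.84), Zfp763 (2.81), Zfp867 (2.64), Zfp595 (2.50) and Zfp462 (2.31). For Zfp120 the P signal went from 37.8 to 167 and the FM signal from 118 to 68.6. For Zfp292, P went from 28.3 to 154 and FM from 57.2 to 43.6, which brought log2 P/FM from -1.01 to 1.82. For Zfp763, P went from 22.4 to 114.5 and FM from 62.9 to 46.0. In each of the 6 a rise in P went with a fall in FM. Of these 6 only Zfp462 was covered by more than 1 probe. The sizes depended on the background correction, and with normexp the rises were 1.60 for Zfp120, 1.69 for Zfp292 and 1.40 for Zfp763.

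After Zfp593 the largest falls were those of Zfp524 (-2.55), Zfp580 (-2.53), Zfp771 (-2.48), Zfp277 (-2.38) and Zfp428 (-2.19). For Zfp771, P went from 4965 to 2858 and FM from 2598 to 8367. Zfp277, a partner of Polycomb proteins, had P signals of 428 and 267 and FM signals of 260 and 848. The probes of these 6 mRNAs start at bases 544 to 1251 of the transcript. In all 6, P was lower and FM higher with thapsigargin. Loess within each array made these falls smaller, to -1.74 for Zfp593, -0.93 for Zfp771 and -0.85 for Zfp428, and it gave -0.71 for Zfp598 and -0.50 for Zfp330.

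**Figure D2:**
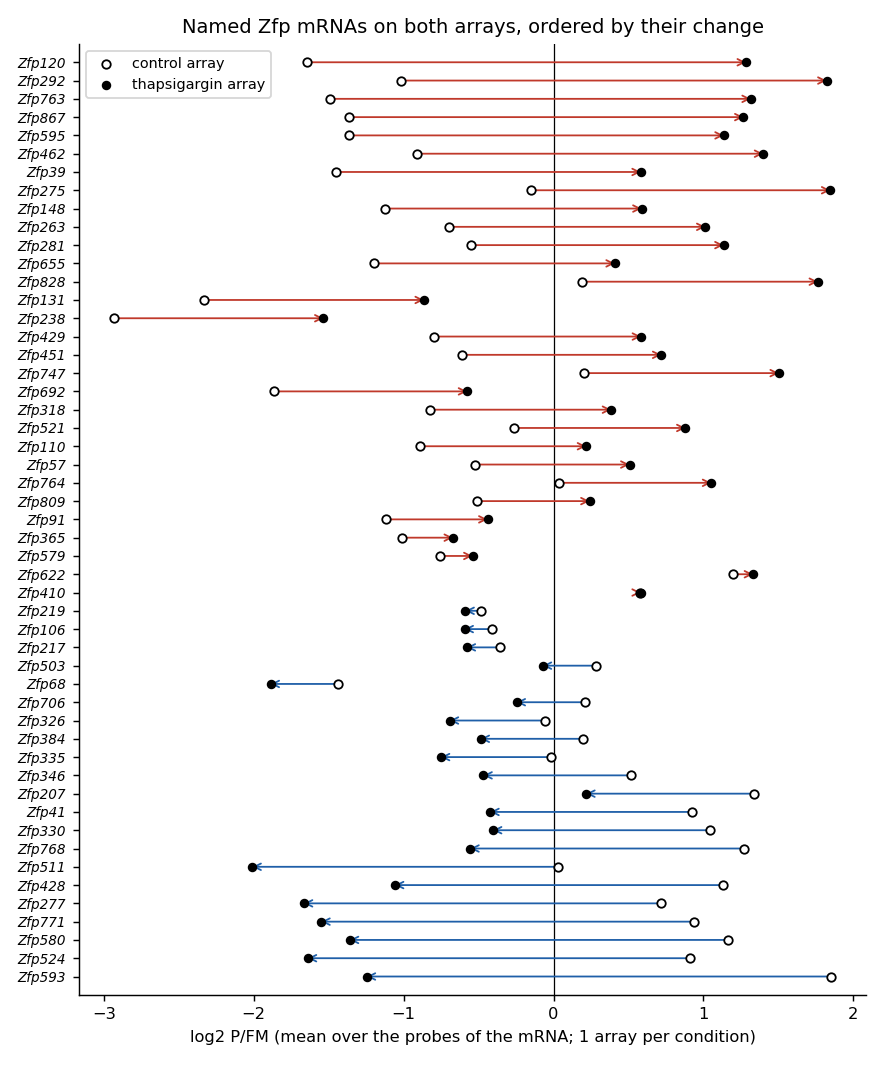
log2 P/FM of the Zfp mRNAs named by the rules on rises, falls, highest and lowest values and known roles, with open circles for the control array and filled circles for the thapsigargin array. Arrows run from control to thapsigargin, red for a rise and blue for a fall, and each circle is the mean over the probes of the mRNA. The arrows run from 2.93 upward for Zfp120 to -3.10 for Zfp593.

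At the ends of the range of each array stood different members, taken here from the 128 with clean probes. In control cells log2 P/FM was highest for Zfp593, Zfp207 and Zfp768 (1.85, 1.34 and 1.27) and lowest for Zfp238, Zfp131 and Zfp692 (-2.93, -2.33 and -1.86). Zfp238, now named Zbtb18, is a transcriptional repressor that acts in neuronal development, and with thapsigargin it was still at -1.53 after a rise of 1.39. Zfp131 was the only inducible mRNA among the 23 brightest members, with P signals of 494 and 2019 and FM signals of 2484 and 3677. With thapsigargin the highest were Zfp275, Zfp292 and Zfp828 (1.85, 1.82 and 1.76) and the lowest Zfp511, Zfp68 and Zfp277 (-2.01, -1.89 and -1.67). None of the 128 was among the 3 highest on both arrays, and over the 181 mRNAs the values on both arrays had a Pearson r of -0.10, against 0.29 over all coding mRNAs, as a description across genes.

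Brightness, which follows both fractions together, rose for most members. A was higher with thapsigargin in 164 of 181 Zfp mRNAs, with a median change of 0.61, where all coding mRNAs had 0.37. With another background correction, normexp, the median change in A of the same mRNAs was -0.73. With the correction used elsewhere in this text, A was higher by 1 or more for 35 (19.3%, background 11.7%). It was lower by 1 or more for none, compared with 70 of all mRNAs. The largest rises were those of Zfp39 (1.82), Zfp429 (1.77), Zfp655 (1.71 over 3 probes) and Zfp110 (1.67), and all 4 also rose in log2 P/FM. Zfp110, which binds a neurotrophin receptor, had P signals of 75.4 and 351.5 and FM signals of 140.1 and 302.2. The largest falls were small, those of Zfp41 (-0.52), Zfp579 (-0.37), Zfp747 (-0.33) and Zfp764 (-0.32). Of these, Zfp747 and Zfp764 rose in log2 P/FM by 1.30 and 1.02 while their FM signal went from 276 to 140 and from 925 to 520. Of the 94 accessions below the limit, 67 were below it on both arrays and 27 in control cells only, so mRNAs that came up from below the limit are not in these counts. Just inside the limit were Zfp296 and Zfp157, with control A of 4.51 and 4.53, and just outside were Zfp398 and Zfp689, with 4.46 and 4.39.

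Changes went down as brightness went up. Over the 181 mRNAs the change had a Pearson r of -0.52 with mean A, and over all coding mRNAs one of -0.39. The median mean A was 6.74 for the Zfp mRNAs and 7.65 for all. Between 4.5 and 5.5 the 28 Zfp mRNAs had a median change of 0.88 against -0.28 for all mRNAs of that brightness, and 10 (35.7%) were inducible, against 13%. Between 5.5 and 7 the 73 Zfp mRNAs had 1.03 against -0.22, and 36 (49.3%) were inducible, against 14.3%. Between 7 and 9 the 57 Zfp mRNAs stood at 0.004 against -0.67, and 17 (29.8%) were inducible, against 7.9%. Above 9 the 23 Zfp mRNAs were at -1.12 against -1.43, with 1 (4.35%) inducible, against 3.34%. The Zfp median was thus above that of all mRNAs in each of the 4 ranges, by 1.16, 1.25, 0.68 and 0.31. The direction itself depended on the limit, since the 61 members with A above 7 on both arrays had a median change of -0.41, against -1.10 for all mRNAs that bright.

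**Figure D3:**
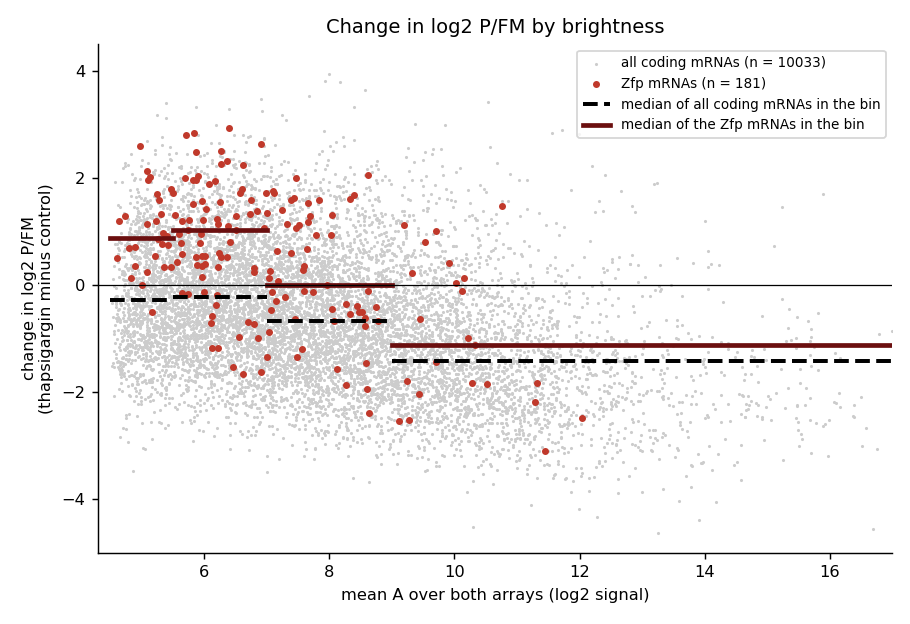
Change in log2 P/FM (y axis) against the mean of A over both arrays (x axis, log2 signal), with Zfp mRNAs in red and all coding mRNAs in grey. Thick lines are the medians in the 4 ranges of brightness, solid for the Zfp mRNAs and dashed for all, and the solid line lies above the dashed one in each.

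Position of the probe in the mRNA went with the change as well. Probe starts are counted in bases from the 5′ end of the transcript, and the last probe of each mRNA was used. Where it began before base 1000, the 12 Zfp mRNAs had a median change of -0.28 against -1.61 for all mRNAs, and 2 (16.7%) were inducible, against 2.23%. From base 1000 to 2000, the 41 Zfp mRNAs had 0.004 against -1.10, and 12 (29.3%) were inducible, against 3.4%. From base 2000 to 3000, the 62 had 0.37 against -0.55, and 19 (30.6%) were inducible, against 6.26%. From base 3000 on, the 66 had 0.99 against 0.15, and 31 (47.0%) were inducible, against 20.1%. Spearman's rho of the probe start with the change was 0.32 over the Zfp mRNAs and 0.54 over all. The Zfp median was higher than that of all mRNAs in each range of probe position, by 1.33, 1.10, 0.92 and 0.83. With the 4 ranges of brightness each split at base 2000, it was higher in 7 of 8. In the other, with A above 9 and probes before base 2000, the 12 Zfp mRNAs had a median of -1.94 against -1.75 for all, and 0 were inducible.

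**Figure D4:**
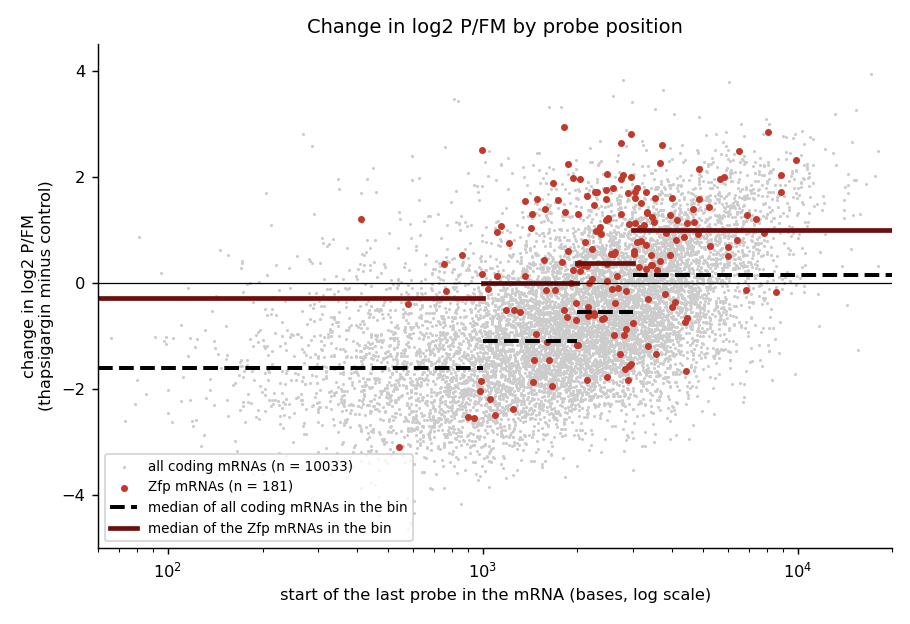
Change in log2 P/FM (y axis) against the start of the last probe in the mRNA (x axis, bases, log scale), with Zfp mRNAs in red and all coding mRNAs in grey. Thick lines are the medians in 4 ranges of probe start, solid for the Zfp mRNAs and dashed for all, and both climb from left to right.

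Probes of the same mRNA mostly moved together. Of the 59 members with several detected probes, the first and the last probe changed in the same direction in 53 (89.8%). The Pearson r across these mRNAs was 0.83. Over all coding mRNAs with several detected probes it was 2760 of 3412 (80.9%), with an r of 0.80, so such agreement is common on these arrays. Where both lay 500 bases or more apart, the last probe had the higher change in 29 of 41 mRNAs, by a median of 0.59, and in 1800 of 2513 over all coding mRNAs, by a median of 0.46. Of the 21 members with 3 or more probes, all probes rose in 16 and all fell in 1, Zfp326. This count includes probes below the detection limit on at least 1 array, such as those of Zfp326, Zfp35 and Zfp445. The share over all coding mRNAs is not given for it. Zfp35 had 4 probes that rose by 1.55 to 2.02, and Zfp445 had 3 that rose by 1.73 to 2.72. Zfp871 had 3 that rose by 1.95 to 2.77, and Zfp655 had 3 that rose by 1.20 to 1.82. Others varied more, as in Zfp26, whose 6 probes ranged from 0.43 to 3.88, and Zfp407, whose probe at base 1463 changed by -0.50 while those at bases 7435 and 7819 rose by 1.48 and 1.85. Dim probes have wide errors. The highest probe of Zfp26 had A of 3.51 and 2.29, and the probe of Zfp407 at base 1463 had 3.61 and 3.88, both below the detection limit.

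Zfp mRNAs from chromosome 17 had the highest median change among chromosomes with 10 or more members. Of the 23, 17 (73.9%) were inducible and 2 sensitive, with a median change of 1.21, while the 158 from other chromosomes had 47 inducible (29.7%) and a median of 0.51. All 506 detected mRNAs from chromosome 17 had a median of -0.86. The chromosome 17 members were somewhat dimmer than the other members, with a median mean A of 5.98 against 6.83. The chromosome was singled out after its values were seen.

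Most of the rising members on chromosome 17 lie in a pair of clusters. The edges of these clusters were placed with the values known, so a rise of all members inside them depends on that choice. The next members beyond Zfp40 and Zfp101 were Zfp13, with a change of 0.38, and Zfp414, with -0.11. In the cluster from Zfp160 to Zfp40 (mm9, chr17:21165328-23312156), all 7 detected members rose by more than 1. Zfp51 went from -1.08 to -0.02, a rise of 1.06 ± 0.50, Zfp53 from -0.96 to 0.92, a rise of 1.88 ± 0.27, and Zfp52 from -1.65 to 0.41, a rise of 2.05 ± 0.29 (SD, 2 probes each). In the cluster from Zfp871 to Zfp101 (chr17:32910629-33517812), all 7 detected members rose, from 1.54 for Zfp563 to 2.81 for Zfp763. Zfp799, in that cluster, was not well above background in 2 of its 4 signals. Outside the clusters, Zfp97, Zfp318 and Zfp57 rose by 1.20, 1.21 and 1.03, with Zfp97 not well above background in 1 of its 4 signals. Zfp598 and Zfp523 fell by 1.83 and 1.78, Zfp414 changed by -0.11, and the other 3 changed by -0.51 to 0.38. Neighbours in a cluster have similar sequences and are not independent examples.

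Chromosome 7 holds the most members. Of its 47 Zfp mRNAs, 9 were inducible (background 8.86%) and 11 sensitive (background 47%), with changes from -2.55 for Zfp524 to 2.24 for Zfp551 and a median of 0.44. Zfp524, Zfp580, Zfp771, Zfp428 and Zfp511 among the large falls are all encoded there, and so are Zfp747 and Zfp764. The median over all 756 detected mRNAs from this chromosome was -0.92. The plot by chromosome shows the spread.

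**Figure D5:**
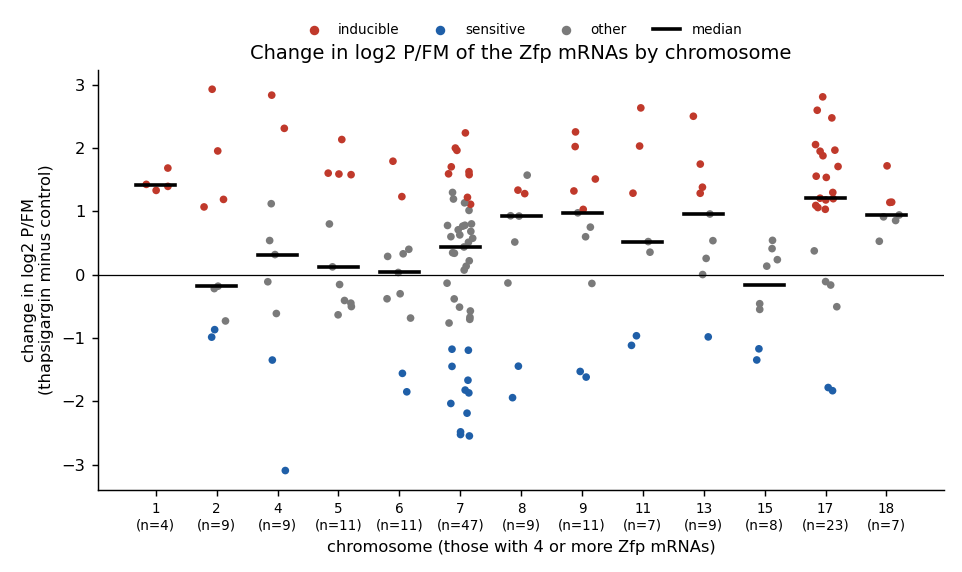
Change in log2 P/FM (y axis) of each Zfp mRNA by chromosome (x axis, chromosomes with 4 or more members), with inducible mRNAs in red, sensitive ones in blue and others in grey, and black bars at the medians. On chromosome 17 the median is 1.21 and on chromosome 7 it is 0.44.

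Other zinc finger families had smaller positive medians when brightness was left aside. The 41 detected Zbtb, Zscan and Zkscan mRNAs, whose fingers are joined to a BTB or SCAN domain, had a median change of 0.44, and 10 (24.4%) were inducible. The 10 Klf mRNAs had a median of 0.16, and 2 were inducible. The Klf mRNAs were brighter, with a median mean A of 8.62, against 6.09 for the Zbtb, Zscan and Zkscan mRNAs and 6.74 for the Zfp mRNAs. The 57 Zfp mRNAs with mean A between 7 and 9 had a median change of 0.004, below that of the Klf mRNAs. All coding mRNAs had a median of -0.71, with 8.86% inducible. No test of a difference between families was made. Some names are old, and 7 members have another symbol in the current RefSeq table, among them Zfp161 (Zbtb14), Zfp238 (Zbtb18), Zfp259 (Zpr1), Zfp191 (Zfp24) and Zfp828 (Champ1). Of these, Zfp828, which aligns chromosomes at mitosis, went from 0.19 to 1.76, while Zfp259, which has fingers of another type, went from 0.65 to -0.97.

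The corepressor genes through which KRAB proteins act showed no common direction. Of 14 genes listed, 13 were detected, with a median change of 0.30, 7 up and 6 down, against 29.3% up and 70.7% down over all coding mRNAs. Setdb1, the methyltransferase recruited by Trim28, rose by 1.37, from -0.25 to 1.12, its stabilising partner Atf7ip by 1.03 ± 0.21 (SD, 3 probes) and Dnmt1, the maintenance DNA methyltransferase, by 1.10. Trim28 itself went from 0.24 to -0.65, a change of -0.89. The heterochromatin proteins Cbx3 and Cbx1 fell by 1.90 and 1.49, while Cbx5 changed by -0.64 ± 1.31 (SD, 3 probes). In these 13 genes 2 were inducible, 3 sensitive and 3 resistant, where 8.86%, 47% and 3% of all coding mRNAs were. The resistant ones were Cbx5, Uhrf1 and Chd4.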

How the data were processed

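Samples were grouped by the labels. The deposited intensity values (spot means and local background medians) were, per the file headers, extracted with Feature Extraction 10.7.1.1 and not normalized. The files also hold a log10 ratio after dye normalization by that software, and the authors deposited a table of log2 values, Cy3 over Cy5, of which 99.99% and 100% on the control and thapsigargin arrays equalled the values computed here within 0.001.

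From each mean signal the local background median was subtracted and values under 0.5 were raised to 0.5, which is the method the study names. No normalization was applied. Of 43379 spots, 295 flagged as outliers were left out, none of a member. Spots were averaged per probe and probes per accession. Positions are those of the files (mm9, NCBI build 37), and current symbols came from a RefSeq table used for names. Of the members, 180 of 181 matched it. A finger pattern was, in a stop-free frame of the probe, the linker core (glycine, glutamate or glutamine, lysine or arginine, proline, tyrosine or phenylalanine) or the paired cysteines followed by glycine or aspartate, lysine or arginine, any residue and phenylalanine. Probe likeness used blastn 2.17.0, and alternatives used limma 3.58.1 in R 4.3.3.

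The members, lists and limits were chosen with earlier results of these data known. Named were, among the 128 members with clean probes, the 6 largest rises and falls in log2 P/FM, the 4 in A and the 3 highest and lowest values on each array, a list of 34 by role, the 2 members on either side of the limit, and members with 3 or more probes, most of which are given by counts. Zfp598, Zfp51, Zfp52, Zfp53, Zfp777, Zfp161, Zfp259, Zfp191, Zfp523, Zfp414, Zfp551, Zfp563, Zfp97 and Zfp13 were named after their values were seen.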

Additional observations from a re-analysis of the deposited data

How the results depend on the processing

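Of 188 values recomputed under 21 alternatives, 3 of them (without finger-pattern probes, the first or the last probe of each mRNA) chosen after seeing the data, 150 kept their sign and stayed within the spread between probes, or within 1.5 times for counts. The median change of the Zfp mRNAs stayed above that of all coding mRNAs under each of the 21, by 0.66 to 1.42. The lowest values came with normexp (0.66) and with A above 7 (0.69). Not all of the 21 could alter this difference. Centring and the spike-in shift move all mRNAs of an array alike, which fixes it at 1.25, and the authors' values nearly equal those used here.

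Of 525 values for the 53 named changes of 1 or more, 289 stayed within the spread between probes, 221 moved by more with the same sign and 15 changed sign, the last all given here. Scaling moved levels most. Centring each array on its median mRNA gave medians of -0.75 in control cells and 0.48 with thapsigargin, a median change of 1.17 in log2 P/FM and 0.13 in A, and 99 inducible, 19 sensitive and 1 resistant mRNAs. The spike-in shift gave medians of -0.0085 and 3.14, a change of 3.09, 37 resistant and 0 sensitive mRNAs. It turned the falls of Zfp524 (0.0016), Zfp580 (0.024), Zfp771 (0.066), Zfp277 (0.17), Zfp428 (0.36), Zfp511 (0.51), Zfp598 (0.72), Zfp768 (0.73), Zfp259 (0.93), Zfp777 (0.99), Zfp330 (1.10), Zfp41 (1.20) and Zfp207 (1.43) into rises. Loess turned Zfp207 (0.017) and lowered the Pearson r with mean A to -0.30. The processed signals gave r of -0.35, a median with thapsigargin of 0.46 and a change in A of 0.33, while its log ratio gave r of -0.34 and a median of 0.46.

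For background, normexp gave a median change in A of -0.73, with 15 sensitive and 1 resistant mRNAs, and turned Zfp238 to -0.072. No subtraction gave 41 inducible mRNAs and 1 resistant.

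Brighter members differed from dim ones. With A above 5.5, 42 mRNAs were inducible and the thapsigargin median was -0.069. With A above 7, 10 of 61 (16.4%) were inducible and 1 was resistant, with medians of 0.30 and -0.19 and a median change of -0.41, against -1.10 for all mRNAs that bright. With no filter, 48 were sensitive and 7 resistant, with r of -0.17. Taking each probe gave 104 inducible probes and r of -0.35, and the first probe of each mRNA gave r of -0.37. The cause of these moves was not tested.

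Membership by protein pattern, and the comparisons by finger number and KRAB domain, were not run because no protein sequences were used here. No paired analysis was possible because each condition has 1 array. Signal over background limits dim members, and 8 of the 181 had a channel in which no probe was well above background.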

Other observations

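Zfp655 is the 1 gene with 2 accessions above the limit, and these moved apart. The accession NM_028298, with 3 probes that start at bases 1741 to 4000, had P signals of 117 and 670 and FM signals of 269 and 504, a change of 1.60 in log2 P/FM. The accession NM_001083958, with 1 probe at base 762, had P signals of 43.5 and 46.0 and FM signals of 51.7 and 60.9, a change of -0.16. The difference is larger than the SD of 0.35 between the 3 probes of NM_028298, and the accessions differ in probe position as well.

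Zfp639, chosen after its values were seen, rose in both fractions and stayed in FM. Its P signals were 286 and 686 and its FM signals 572 and 2138, so that A was higher by 1.58 with thapsigargin while log2 P/FM changed by -0.64, to -1.64.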
